A study of Mus musculus with 20 samples.

Results

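The genes described here are the nuclear-encoded subunits of the mitochondrial respiratory chain. Their symbols start with *Nduf* followed by a, b, c, s or v and a number (complex I), *Uqcr* (complex III), *Cox4* to *Cox8* (complex IV) or *Atp5* (complex V, the ATP synthase). Of the 17101 genes in the table, 74 had such a symbol, and 70 of these reached a mean normalized count of 10 over the 20 libraries: 33 of complex I, 8 of complex III, 12 of complex IV and 17 of complex V. RNA-Seq had been performed on donor T cells sorted from the spleens of mice 10 days after an allogeneic transplantation of marrow and T cells. The donors were B6 mice of 6 to 12 weeks, either WT or *Dnmt3a*-KO with both alleles floxed and Cre recombinase driven by the *Cd4* promoter, and the recipients were irradiated F1 mice of 8 to 12 weeks. CD4+, CD8+ and CD4+CD8+ double-positive (DP) KO cells and CD4+ and CD8+ WT cells were measured, with 4 libraries in each of the 5 groups. Library titles carried the numbers 1 to 4 for KO and 2, 3, 5 and 6 for WT, and values in a list follow this order. A number is called an animal here, although the titles do not say whether it is an animal or a pool. DP cells from WT donors were not analysed here.

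The respiratory chain sits in the inner mitochondrial membrane. Complex I takes electrons from NADH, complex III passes them to cytochrome c, and complex IV hands them to oxygen, and the proton gradient that these steps build is used by complex V to make ATP. A few subunits of complexes I, III, IV and V are made from mitochondrial DNA, and all others come from nuclear genes like those described here. Resting and memory T cells rely mainly on oxidative phosphorylation, while T cells that divide after antigen encounter add a large share of aerobic glycolysis. Several nuclear transcription factors, NRF1, the ETS factor GABP, YY1 and the ERR receptors among them, are known to act on promoters of this gene family.

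RefSeq promoter windows (GRCm38.p6, 250 bases before to 50 bases after the start) were found for 60 of the 70 genes. The NRF1 letters GCGCANGCGC, read on both strands, stood in 14 of these 60 windows (23.3%), against 11.6% of 9846 expressed genes and 5.19% of all 27025 genes with a window. The ETS letters CCGGAAG also stood in 14 windows (23.3%), against 20.6% of expressed genes, and the YY1 letters ATGGCGGC in 7 (11.7%), against 5.67%. The cAMP response element TGACGTCA was found in 4 windows (6.67% against 3.68%), the SP1 letters GGGGCGGGG in 11 (18.3% against 24.6%), the E-box CACGTG in 7 (11.7% against 11.4%) and the ERR letters TCAAGGTCA in 1 (1.67% against 0.315%), which belonged to *Atp5g3*. Of the 14 genes with the NRF1 letters, 6 belong to complex I, 1 to complex III, 1 to complex IV and 6 to complex V. The letters were present in 5 of the 18 windows of genes that rose in KO cells of either subset and in 9 of the other 42. These matches describe the letters in the windows and do not show that a factor was bound. The following stretches end before the start of *Atp5g2*, which makes the membrane ring of the ATP synthase, and of *Ndufa8*, an accessory subunit of complex I. They are shown because both genes hold the NRF1 letters upstream of the start, in capitals, and rose in both subsets of KO cells.
Atp5g2, chr15:102671048-102671119, minus strand: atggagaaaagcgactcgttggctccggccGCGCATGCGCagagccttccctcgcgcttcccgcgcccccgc
Ndufa8, chr2:36049339-36049398, minus strand: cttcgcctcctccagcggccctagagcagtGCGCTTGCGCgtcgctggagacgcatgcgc

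Between 37547651 and 46966318 reads fell on genes in each library. The targeted gene *Dnmt3a* ranged from 650 to 2007 normalized counts over the KO libraries, below the WT libraries of CD8+ (from 3542) and CD4+ cells (from 4690). The 8 T cell markers were detected in every group, with sums of 164600 to 348800. In the KO CD4+ library of animal 1, *Cd8a* stood at 3771 and *Cd8b1* at 4515. In the other KO CD4+ libraries *Cd8a* stood at 78.3 to 227.3 and *Cd8b1* at 549.9 to 788.5. The KO CD8+ libraries had 45780 to 68740 of *Cd8a* and 35470 to 46610 of *Cd8b1*. Among 5 B cell markers, *Cd79b* alone made up most of a sum of 647 to 2282 in KO and 55.7 to 260 in WT libraries, and *Ms4a1* and *Pax5* were at 0 in all KO CD8+ and KO DP libraries. The 5 neutrophil markers summed to 1698 to 4191 in WT libraries and to 0 to 7179 in KO libraries. The high KO values were those of animal 3. *S100a8* was at 468 to 1981 in its libraries, at 0 to 115 in the other KO libraries and at 415 to 811 in WT libraries. All 5 neutrophil markers had negative differences in KO against WT cells, with medians of -4.13 (CD4+) and -3.82 (CD8+), and 1 was called lower in each subset. The 5 myeloid markers summed to 1061 to 5818 over all groups. The 5 pancreatic acinar markers summed to 523 to 7517 in KO and 392 to 2188 in WT libraries, and the 1 erythroid marker of the table stood at 85.5 to 521 in WT and at 0 to 169 in KO libraries. The part of these cell types in the differences below was not tested. In sorted populations, more transcript per cell and more cells with the transcript cannot be told apart.

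The most abundant members per length of exon were *Atp5b*, the catalytic beta subunit of the ATP synthase, with a mean normalized count of 28420 per kb over the 20 libraries, and *Cox4i1*, a regulatory subunit of complex IV, with 27730 per kb. *Uqcrh*, the hinge protein of complex III, led its complex with 14930 per kb. *Ndufa4* led the complex I symbols with 11610 per kb. It was named as a complex I subunit but is known as a component of complex IV, and is counted here by its symbol. The lowest members per kb were *Ndufa11* (914 per kb) in complex I, *Uqcrq* (2974) in complex III, *Cox6b2* (46.4) in complex IV and *Atp5s* (37.6) in complex V. The length joins the exons of all curated transcripts of a gene, 2661 bases for *Ndufa11* and 1525 for *Uqcrq*. By mean normalized count, *Ndufc1* (971) was the lowest in complex I and *Uqcr11* (2500) in complex III. *Atp5s* and *Atp5sl* carry the names *Dmac2l* and *Dmac2* in RefSeq and are not structural subunits of the synthase. In the plot of levels by complex, 3 members stood below 100 normalized counts per kb, namely *Cox6b2*, *Cox7a1* (74.1) and *Atp5s*.

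**Figure D1:**
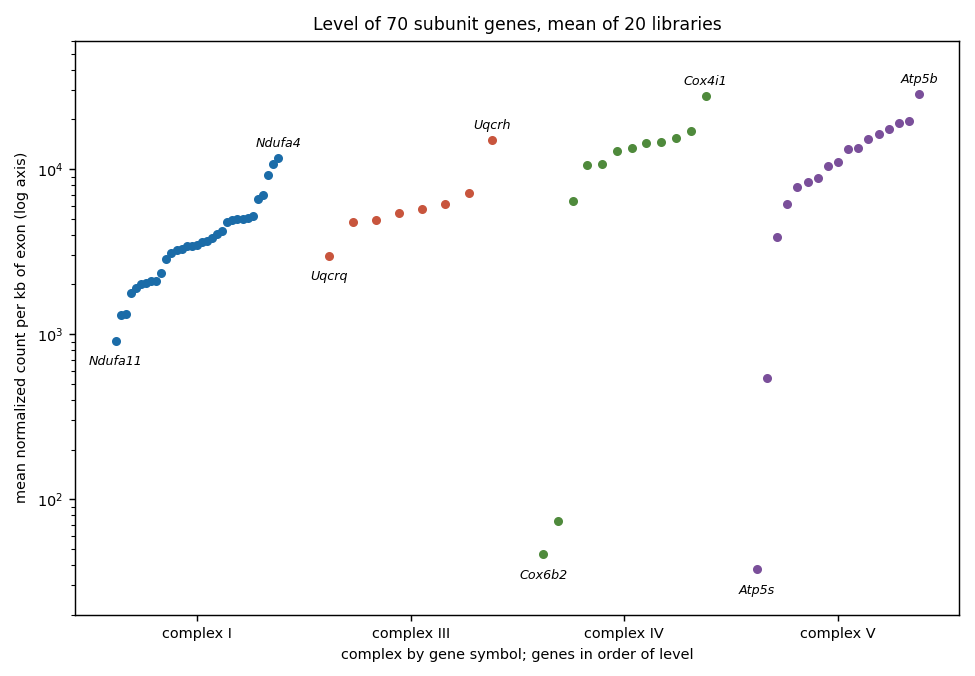
Mean normalized count per kb of exon over 20 libraries (log axis) for each of the 70 subunit genes, grouped by complex as given by the symbol, with the highest and the lowest of each complex named. Levels run from 37.6 (*Atp5s*) to 28420 (*Atp5b*), and complex I genes lie between 914 and 11610.

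Where a subunit exists as paralogs, the form known from most tissues held nearly all of the counts. *Cox4i1* averaged 21190 normalized counts and its lung paralog *Cox4i2* 2.93, *Cox6a1* averaged 6945 and the heart and muscle form *Cox6a2* 7.53, and *Cox8a* averaged 8418 and *Cox8b* 0.575. The testis form *Cox6b2* (28.6) and the heart and muscle form *Cox7a1* (27.1) passed the minimum of 10, against 8001 for *Cox6b1* and 4835 for *Cox7a2*. The 3 genes for the identical mature c subunit of the ATP synthase were all present, with means of 3383 (*Atp5g1*), 8538 (*Atp5g2*) and 13690 (*Atp5g3*). The fourth symbol under the minimum was *Ndufs5*, a complex I subunit that was listed at 0 in 19 of 20 libraries and at 2.62 in WT CD8+ animal 2. Its annotated processed pseudogene *BC002163*, which is no member, shares 72.6% of its 50-base words with *Ndufs5* transcripts and was listed at 1030 to 3673, so that reads on the shared stretches could have come from either of the 2 loci, and both genes are uncertain here. *BC002163* ranged from 1030 to 1373 in KO CD4+ and from 1088 to 1392 in KO CD8+ libraries, against lowest WT values of 1222 (CD4+) and 1370 (CD8+). The mitochondrial-encoded subunits and the X-linked *Ndufa1*, *Ndufb11* and *Cox7b* were not analysed here.

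Across libraries the members moved together. The median correlation of a member with the median of the other members, on log2(normalized count + 1), was 0.933 over 20 libraries, with 59 of 70 members over 0.8. Without KO DP animal 3 the median was 0.861 and 40 members were over 0.8. These points share library, scaling and RNA preparation. The same correlation was not computed for other genes, so that these values do not show a movement particular to the members. The members least like the rest over 20 libraries were *Cox6b2* (r = 0.033), *Ndufs1*, the largest subunit of complex I (0.117), *Atp5sl* (0.154) and *Atp5s* (0.273). This order rests in part on KO DP animal 3. Without it *Cox6b2* was at -0.666, *Atp5s* at 0.062, *Atp5sl* at 0.225 and *Ndufs1* at 0.482, and *Uqcrb*, a small subunit of complex III, moved from 0.765 to -0.067. *Ndufs1* also varied least, with an SD of 0.133 log2 units over the 20 libraries, while *Cox6b2* (1.26) and *Cox7a1* (0.841) varied most.

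The KO DP library of animal 3 stood apart from all others. The 70 members took 1.80% of its normalized counts, against 0.889% to 1.27% in the other 19 libraries, and their median lay 1.17 log2 units above their mean over libraries, against -0.298 to 0.343 elsewhere. For 65 of the 70 members it was the library with the highest value, and the same held for 21.6% of all genes. By complex, the median rise of its members was 1.15 (I), 1.30 (III), 1.27 (IV) and 1.00 (V) log2 units. Cytosolic ribosomal proteins, another group of short and abundant transcripts, took 14.9% of its counts, against 5.90% to 9.96% elsewhere, and 11783 genes had reads in it, against 13203 to 14677. The neutrophil marker *S100a8* was at 1981 in this library and at 0 to 101 in the other DP libraries. It was not particular to this library, with 793 in the CD4+ and 468 in the CD8+ library of KO animal 3 and 415 to 811 in WT libraries. Exceptions among the members included *Ndufs1*, at 3684 in this library and 3598 to 4712 in the other DP libraries, and *Ndufa10*, at 6207 and 6374 to 6487. The medians over DP cells are therefore given with and without this library.

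**Figure D2:**
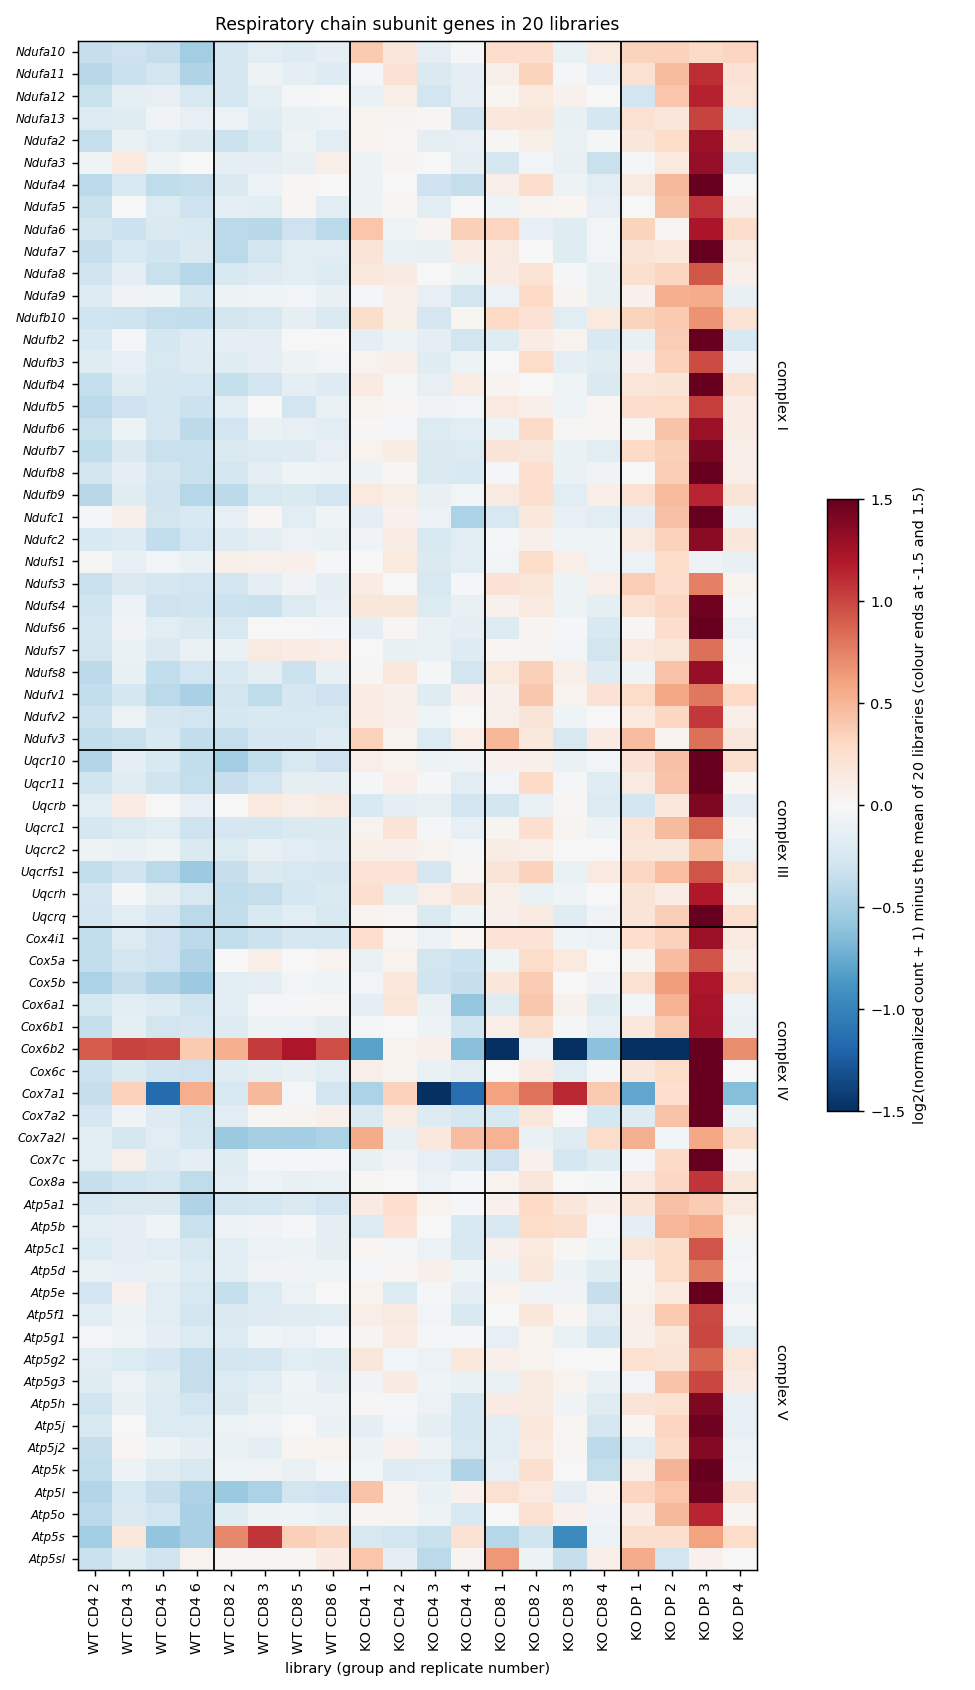
log2(normalized count + 1) of 69 members (rows, by complex) in each of the 20 libraries (columns, by group and animal number), as the difference from the member's mean over libraries. WT columns are mostly below the mean, and the column of KO DP animal 3 is the highest for 64 of the 69 members drawn.

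The first question was whether loss of DNMT3a went with a different level of respiratory chain transcripts in CD4+ T cells. Of the 70 members, 21 were higher and 0 lower in KO than in WT CD4+ T cells (limma, Benjamini-Hochberg adjusted over 12391 genes, threshold 0.05). Over all genes, 8.59% were called higher and 9.77% lower. The differences were small: the median of the members was 0.18 on the log2 scale, against -0.048 for all genes tested, and the largest rise was 0.49. The difference was positive for 64 of 70 members. The count was 10 of 33 in complex I, 3 of 8 in complex III, 4 of 12 in complex IV and 4 of 17 in complex V, with medians of 0.23, 0.26, 0.17 and 0.14. All 4 KO libraries were above all 4 WT libraries for 28 of the 70 members, and for 12.3% of all genes. The count of 21 moved to 9 with a common total, to 8 (7 higher and 1 lower) without the variance trend and to 5 in a joint fit of the 20 libraries. Over all genes, these settings called 2336, 1403 and 1304 in place of 2274. Without WT CD4+ animal 6, 0 members were called (29 at an unadjusted p under 0.05 by limma), and the count was 4 without WT animal 2, 6 without WT animal 5, 11 without WT animal 3 and 8 without KO animal 1. The calls over all genes fell as well, from 2274 to 628, 1106, 1025, 976 and 1352 in the same order.

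In complex I, the members that rose most were *Ndufa10*, *Ndufa6* and *Ndufv1*. *Ndufv1* (chr19:4007499-4012755) encodes the subunit that binds NADH and the flavin cofactor. It stood at 5425, 5311, 4461 and 5281 normalized counts in KO CD4+ and at 3897, 4199, 3799 and 3586 in WT CD4+ T cells. All 4 KO libraries were above all 4 WT libraries, and the difference was 0.40 on the log2 scale (SE 0.085, limma adjusted p = 0.0136). *Ndufa10* (chr1:92439486-92473825), an accessory subunit of the membrane arm, stood at 6685, 5725, 4605 and 5031 in KO and at 3998, 4088, 3968 and 3551 in WT cells, which also did not overlap (log2 fold change 0.49, SE 0.112, limma adjusted p = 0.0177). *Ndufa6*, an accessory LYR-motif subunit, rose by 0.45 (SE 0.110, limma adjusted p = 0.0230). The other 7 members of complex I that rose were *Ndufv2*, a core iron-sulfur subunit, and the accessory *Ndufv3*, *Ndufa7*, *Ndufa8*, *Ndufb5*, *Ndufb9* and *Ndufb10*, with log2 fold changes of 0.27 to 0.40. Not every core subunit was among them. *Ndufs1*, which carries several of the iron-sulfur clusters, stood at 3879, 4305, 3332 and 3476 in KO and 3927, 3562, 3780 and 3635 in WT cells, a log2 difference of 0.0020 (SE 0.090). The core subunits *Ndufs3* and *Ndufs8* had positive differences of 0.23 and 0.26 that did not pass the test (limma adjusted p = 0.0834 and 0.0971), and *Ndufs7* differed by 0.075.

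In complex III, *Uqcrfs1*, *Uqcr10* and *Uqcrc1* rose. *Uqcrfs1* (chr13:30540312-30545316), the Rieske iron-sulfur protein, stood at 7047, 7074, 5148 and 6222 in KO and 4727, 4964, 4621 and 4201 in WT CD4+ T cells. The groups did not overlap and differed by 0.45 (SE 0.107, limma adjusted p = 0.0197). *Uqcrc1*, a core protein without a cofactor, rose by 0.26 (SE 0.080, limma adjusted p = 0.0498), close to the threshold, and its partner *Uqcrc2* differed by 0.17 (SE 0.066, limma adjusted p = 0.101). In complex IV, *Cox4i1* (chr8:120668225-120674209) stood at 24221, 20551, 19148 and 20802 in KO and 15773, 17604, 16384 and 15568 in WT cells. It rose by 0.37 (SE 0.086, limma adjusted p = 0.0188). *Cox7a2l* (chr17:83501917-83514333), counted in complex IV by its symbol, stood at 17382, 10896, 13145 and 16307 in KO and 10597, 9829, 10513 and 9881 in WT cells, a rise of 0.48 (SE 0.132, limma adjusted p = 0.0335) with a wide spread among the KO animals. *Cox8a*, with 0.30 (SE 0.063), and *Cox6c*, with 0.26 (SE 0.075), were the other rises in this complex. In complex V, *Atp5a1*, the alpha subunit of the catalytic head, stood at 50651, 55472, 48537 and 46247 in KO and 39317, 40127, 40231 and 34221 in WT cells, a rise of 0.38 (SE 0.092, limma adjusted p = 0.0207). *Atp5b*, which alternates with it in the head, stood at 45798, 60786, 52312 and 44798 in KO and 46946, 47702, 50366 and 41662 in WT cells. These groups overlapped, with a difference of 0.12 (SE 0.114). *Atp5l* (subunit g, 0.48, SE 0.109), *Atp5g2* (0.29, SE 0.082) and *Atp5o*, the stalk protein that confers oligomycin sensitivity (0.29, SE 0.088), were the remaining rises.

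The same comparison in CD8+ T cells called 18 members higher and 2 lower in KO cells. Over all 12383 genes tested, 12.6% were called higher and 12.5% lower. The median of the members was 0.17, against -0.042 for all genes, and the difference was positive for 58 of 70. By complex the rises were 8 of 33 (I), 5 of 8 (III), 2 of 12 (IV) and 3 of 17 (V), with medians of 0.19, 0.27, 0.15 and 0.13. All 4 KO libraries were above all 4 WT libraries for 23 of the 70 members, and for 15.2% of all genes. With libraries scaled to a common total, 8 members were higher and 3 lower, and in the joint fit 6 were higher and 1 lower. Over all genes, these settings called 2964 and 2017 in place of 3118. Without WT CD8+ animal 2, 9 members were called, and without animals 3, 5 and 6 these were 10, 12 and 10, while the calls over all genes moved from 3118 to between 1633 and 1753.

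*Ndufv1* stood at 5308, 6656, 5214 and 5870 in KO CD8+ and at 4170, 3879, 4219 and 4079 in WT CD8+ T cells, a rise of 0.49 (SE 0.085, limma adjusted p = 0.00489). *Atp5a1* stood at 48981, 57166, 52399 and 49311 in KO and 38620, 38836, 40068 and 38239 in WT cells, a rise of 0.41 (SE 0.072, limma adjusted p = 0.00492). Neither gene had overlapping groups. *Uqcrfs1* stood at 7004, 7788, 5728 and 6756 in KO and 4803, 5278, 5196 and 5134 in WT cells, with a rise of 0.41 (SE 0.092, limma adjusted p = 0.0128). *Cox7a2l* had the largest rise of the members called in this comparison, 0.64 (SE 0.141, limma adjusted p = 0.0120), from 8006, 8361, 8326 and 8524 in WT to 16970, 10997, 10418 and 14329 in KO cells. *Cox4i1* rose by 0.37 (SE 0.085, limma adjusted p = 0.0142), its WT libraries lying at 15733 to 17038 and its KO libraries at 19103 to 23444. *Atp5l* rose by 0.48, *Uqcr10* by 0.36, *Uqcrc1* by 0.30 and *Uqcrc2* by 0.22. In complex III, *Uqcrb* was the only member of that complex with a negative difference, -0.23. *Ndufs1* again differed little, by 0.021 (SE 0.084), and *Atp5b* by 0.15 (SE 0.113).

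Both members that fell in KO CD8+ T cells were low in all libraries. *Cox6b2* stood at 6.42, 19.6, 5.61 and 13.3 in KO and 30.5, 44.1, 49.4 and 41.7 in WT cells, and fell by 1.93 on the log2 scale (SE 0.477, limma adjusted p = 0.0181). In CD4+ T cells it stood at 11.5, 21.6, 22.0 and 13.2 in KO and 40.1, 43.1, 42.7 and 27.6 in WT cells, without overlap, at -1.16 (SE 0.413), which did not pass the test (limma adjusted p = 0.0732). Its common paralog *Cox6b1* did not show this pattern, at 7573, 7743, 7354 and 6272 in KO and 6073, 7050, 6395 and 6486 in WT CD4+ cells. *Atp5s* stood at 53.5, 58.7, 37.0 and 68.2 in KO and 120, 154, 93.5 and 89.9 in WT CD8+ cells, a fall of 1.06 on the log2 scale (SE 0.291, limma adjusted p = 0.0272). In CD4+ cells its groups overlapped, with 61.2, 59.9, 57.3 and 84.6 in KO and 50.1, 80.7, 47.6 and 51.5 in WT libraries.

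**Figure D3:**
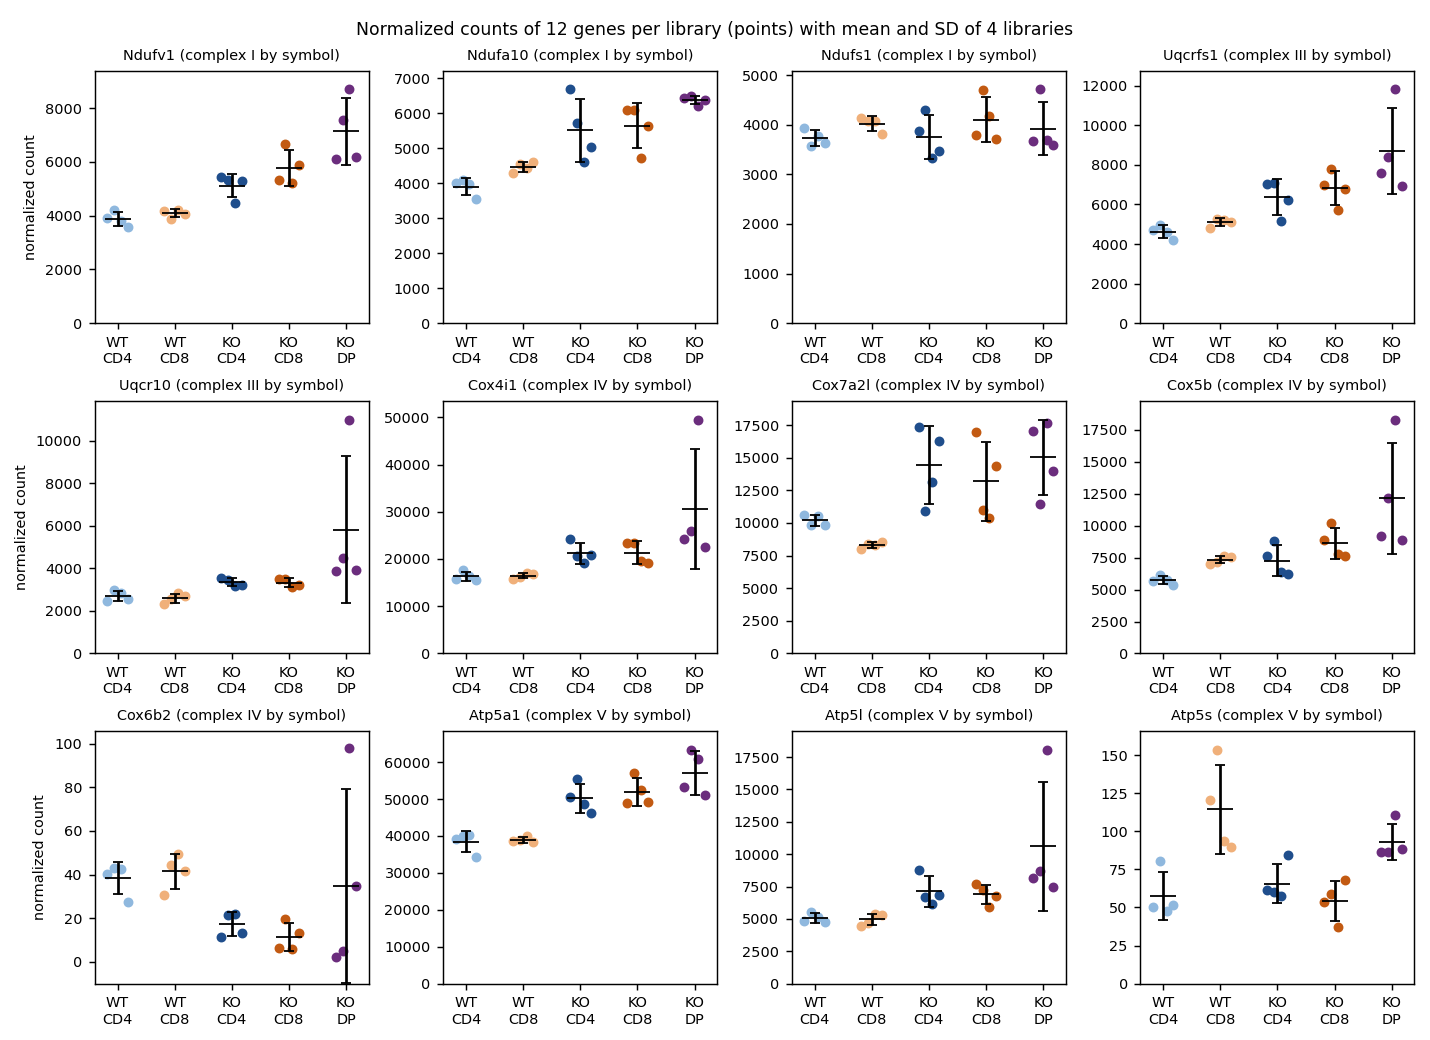
Normalized counts of 12 members in each library (points) by group, with the mean and SD of 4 libraries as bar and whiskers and an axis that includes 0. KO CD4+ and KO CD8+ points of *Ndufv1*, *Uqcrfs1*, *Cox4i1*, *Atp5a1* and *Atp5l* lie above the WT points of the same subset, *Ndufs1* overlaps throughout, *Cox6b2* lies lower in KO CD4+ and KO CD8+ cells, and *Atp5s* has its highest mean in WT CD8+ cells.

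The CD4+ and CD8+ comparisons used different libraries from the same animal numbers. Of the members that rose, 15 did so in both subsets, which is 71.4% of the 21 rises in CD4+ and 83.3% of the 18 in CD8+ cells. Over all 12076 genes tested in both, 72% of the rises in CD4+ and 48.8% of those in CD8+ cells were shared. The shared members were *Ndufa6*, *Ndufa8*, *Ndufa10*, *Ndufb9*, *Ndufb10*, *Ndufv1*, *Ndufv2*, *Uqcr10*, *Uqcrc1*, *Uqcrfs1*, *Cox4i1*, *Cox7a2l*, *Atp5a1*, *Atp5g2* and *Atp5l*. They include a flavin, a Rieske and an alpha head subunit beside small accessory proteins. In 44 of 70 members neither comparison was called, and in 57 the difference was positive in both, as it was for 37.3% of all genes. The difference between the effects in the subsets was tested as an interaction over 16 libraries, in which 0 members were called by limma, edgeR or DESeq2 (0.0161% of all genes were called by limma), and 1 member had an unadjusted p under 0.05 by limma. This was *Atp5s*, whose difference was higher in CD4+ than in CD8+ cells by 1.27 (SE 0.390, limma adjusted p = 0.506). The members called in a single subset were thus not shown to differ between the subsets.

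**Figure D4:**
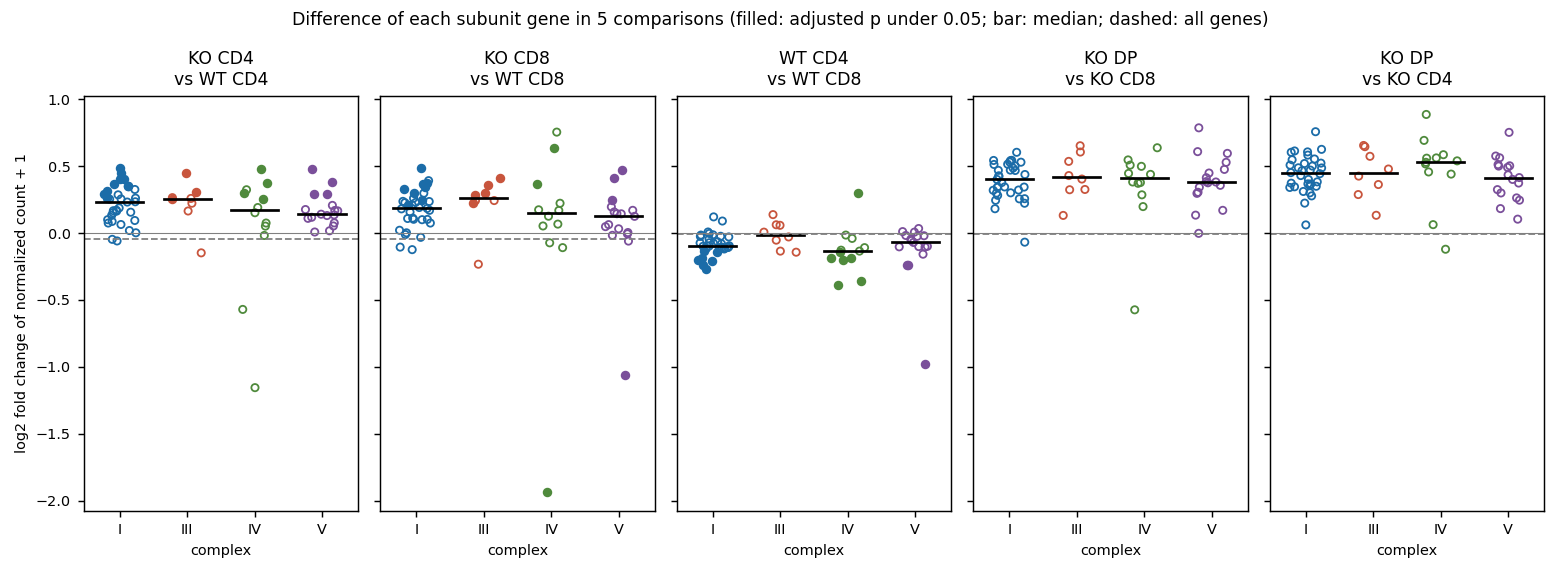
log2 fold change of each member (points) by complex in 5 comparisons of 4 against 4 libraries. Filled points passed a limma adjusted p of 0.05, bars are medians of a complex and the dashed line is the median of all genes tested. In both KO against WT panels the bars lie between 0.13 and 0.27, and in the DP panels no point is filled.

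Other gene groups of the mitochondrion differed in size and direction. In complex II, whose 4 genes the symbol rule does not cover, *Sdhb* and *Sdhc* rose in KO CD4+ and *Sdhb*, *Sdhc* and *Sdhd* in KO CD8+ cells, by 0.25 to 0.29, and the medians were 0.24 and 0.26. The counts of the following lists are to be read against the shares of all genes given above, of which 8.59% rose in CD4+ and 12.6% in CD8+ cells. Of 48 assembly factors of the respiratory complexes, 7 rose and 0 fell in CD4+ and 5 rose and 3 fell in CD8+ cells, with medians of 0.025 and -0.012. *Cox10*, the heme farnesyltransferase needed for complex IV, rose by 0.52 and 0.54, and *Cox17*, a copper chaperone, had a log2 fold change of -0.46 in CD8+ cells. Of 77 mitochondrial ribosomal proteins, 10 rose and 0 fell in CD4+ and 11 rose and 3 fell in CD8+ cells, with medians of 0.11 and 0.062. Among 14 enzymes of the TCA cycle, the succinyl-CoA ligase subunits *Sucla2* (0.28 and 0.38) and *Suclg1* (0.27 and 0.37) rose in both subsets and *Dld* (0.24) rose in CD8+ cells, while the medians were 0.075 and 0.038. Of 13 regulators of mitochondrial biogenesis, *Tfb2m*, a mitochondrial transcription factor, rose by 0.54 and 0.50, and *Polg*, the mitochondrial DNA polymerase, and *Pprc1*, a PGC-1-related coactivator, were lower in KO cells of both subsets, with log2 fold changes of -0.44 and -0.37 in CD4+ and -0.42 and -0.58 in CD8+ cells. In all, 1 regulator rose and 2 fell in CD4+ and 3 rose and 2 fell in CD8+ cells. Of 6 subunits whose symbols lie outside the rule, *2010107E04Rik* rose in CD4+ cells by 0.44 and *Ndufab1* was lower in KO CD8+ cells, at -0.42. The medians of these 6 were -0.05 in CD4+ and -0.14 in CD8+ cells, unlike the positive medians of the members. Their differences were positive for 3 and negative for 3 in CD4+ cells, and positive for 1 and negative for 5 in CD8+ cells. The 73 cytosolic ribosomal proteins tested had higher medians than the respiratory chain genes, 0.33 in CD4+ (13 rose, 0 fell) and 0.34 in CD8+ cells (54 rose, 1 fell).

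In WT cells, CD4+ and CD8+ T cells were compared to describe how the subsets differ without the deletion. Here 1 member was higher and 16 were lower in CD4+ cells. Over 12559 genes, 22.3% were called higher and 22.2% lower, so that the share of members that were lower was close to that of all genes. The median of the members was -0.098, against -0.0060. Complex IV held 6 of the 16, with *Cox5a* and *Cox5b*, subunits that cap the matrix side of the core, in front. *Cox5a* stood at 5633, 5997, 5848 and 5321 in WT CD4+ and 7320, 7760, 7270 and 7526 in WT CD8+ cells, which differed by -0.39 (log2, SE 0.048, limma adjusted p = 2.16e-05). *Cox5b* stood at 5682, 6146, 5763 and 5392 against 6995, 7189, 7650 and 7543, at -0.36 (SE 0.051, limma adjusted p = 7.82e-05). Both genes had every CD4+ library below every CD8+ library. *Ndufa4* had a log2 fold change of -0.27 (SE 0.060), *Cox8a* of -0.20 (SE 0.044) and *Atp5o* of -0.24 (SE 0.059). *Atp5s* was lower in WT CD4+ cells by the most, at -0.98 (SE 0.253, limma adjusted p = 0.00641). The only member that was higher was *Cox7a2l*, at 10597, 9829, 10513 and 9881 in CD4+ and 8006, 8361, 8326 and 8524 in CD8+ cells, a difference of 0.30 (SE 0.044, limma adjusted p = 0.000105). No member of complex III was called. With the animal as a block, 2 members were higher and 20 lower, and in the joint fit of the 20 libraries 1 was lower and 0 higher. Over all genes, these settings called 6134 and 1610 in place of 5592. Without single libraries, 12 to 25 members were called.

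The next question was how the transcripts stood in KO DP cells beside the CD8+ and CD4+ single-positive cells of the same 4 animal numbers. With 4 libraries against 4 and no block, neither comparison called a member by limma, edgeR or DESeq2. In the joint fit of the 20 libraries, 16 members were higher in DP than in KO CD4+ cells (4.59% of all genes were called higher) and 0 differed from KO CD8+ cells. The joint fit includes the DP library of animal 3 and was not run without it. In the fits of 4 against 4 libraries, 0.00823% of all genes were called in either direction against KO CD8+ cells. Against KO CD4+ cells these fits called 0.682% of all genes higher and 1.26% lower. At an unadjusted p under 0.05 by limma, 0 members differed from KO CD8+ cells, against 1.95% of all genes, and 16 from KO CD4+ cells, against 14.9%. The difference was positive for 67 and 69 of 70 members, with medians of 0.39 and 0.46, and it depended on animal 3: without that DP library the medians were 0.15 and 0.20, and 67 and 68 members were positive. Both comparisons use the same DP libraries.

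*Cox5b* shows the pattern. It stood at 9191, 12151, 18289 and 8900 in KO DP cells, at 8851, 10230, 7810 and 7609 in KO CD8+ and at 7639, 8778, 6393 and 6208 in KO CD4+ cells. The DP value was above the CD8+ and the CD4+ value of the same animal in all 4 animals, and the excess in animal 3 was the largest. *Uqcr10* stood at 3852, 4498, 10987 and 3923 in DP, 3485, 3501, 3101 and 3231 in CD8+ and 3560, 3446, 3156 and 3216 in CD4+ cells, with every DP library above all others. Its log2 fold changes were not called in either comparison.

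With the animal as a block and without animal 3's DP library, a setting added after the data were seen, 5 members were higher in DP than in KO CD8+ cells (2.38% of all genes were called higher) and 5 were higher than in KO CD4+ cells (6.17%), and 0 were lower in either. Against KO CD8+ cells these were *Atp5k* (0.27), *Uqcr10* (0.26), *Cox7c* (0.24), *Uqcrq* (0.22) and *Ndufc2* (0.22), with SEs of 0.055 to 0.065. Against KO CD4+ cells they were *Cox5b* (0.42, SE 0.078), *Atp5k* (0.41), *Ndufa4* (0.35), *Cox5a* (0.32) and *Ndufb7* (0.26). The shares of members called, 5 of 70 in each, are to be read against these percentages of all genes. *Cox5a*, *Cox5b*, *Ndufa4* and *Ndufb7* were also among the members that were lower in CD4+ than in CD8+ cells of WT animals. Of all genes, 22.2% were lower there, and the same overlap was not counted over all genes.

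Members are short transcripts: the median exon length was 758.5 bases, against 2986 for other tested genes, and 64.3% of members but 7.18% of other genes were under 1 kb. In the DP comparisons the difference moved with length in genes that are no members. Other genes under 1 kb had medians of 0.38 (against KO CD8+) and 0.36 (against KO CD4+), and other genes of 4 kb or more had medians of -0.20 and -0.20. Members under 1 kb had medians of 0.44 and 0.51. Without KO DP animal 3 the medians were 0.14 and 0.14 for other genes under 1 kb, -0.086 and -0.074 for those of 4 kb or more, and 0.16 and 0.22 for members under 1 kb. In KO against WT CD4+ cells, other genes went from 0.043 under 1 kb to -0.11 at 4 kb or more, and in CD8+ cells the same classes were at -0.026 and -0.035. Members under 1 kb stood at 0.17 in CD4+ and 0.13 in CD8+ cells. The part of transcript length in the members' differences was not tested.

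**Figure D5:**
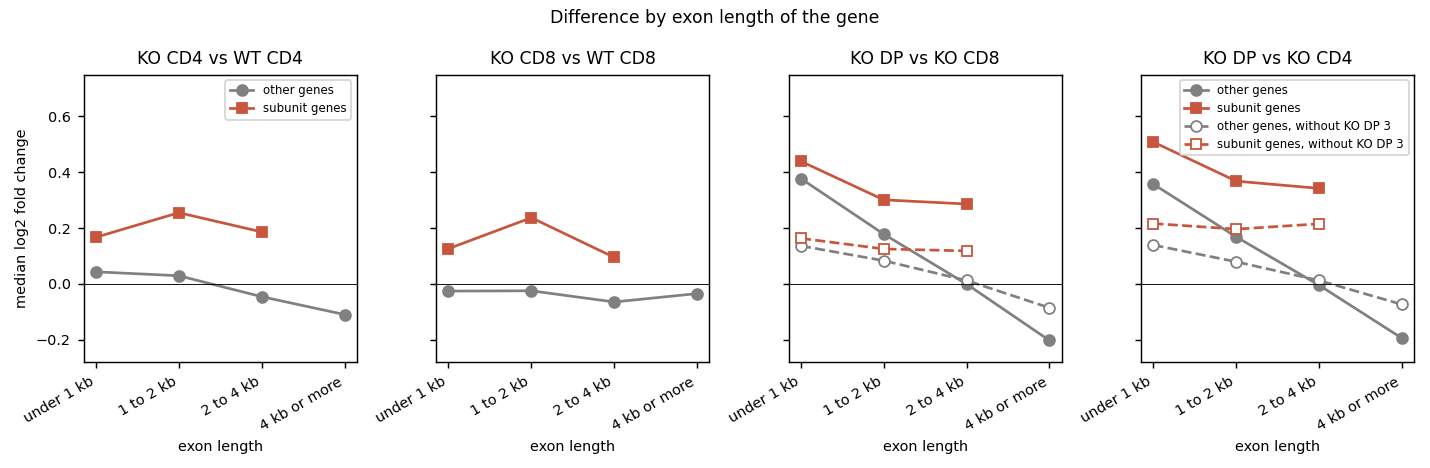
Median log2 fold change by exon length for members (squares) and other tested genes (circles) in 4 comparisons, with 45, 19 and 6 members in the classes up to 4 kb and none above, and with open symbols and dashed lines for the DP comparisons without KO DP animal 3. Other genes go from 0.38 to -0.20 with length in the DP against KO CD8+ panel (0.14 to -0.086 without animal 3), from 0.043 to -0.11 in the KO against WT CD4+ panel, and lie between -0.065 and -0.025 in the KO against WT CD8+ panel.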

How the data were processed

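Libraries were poly(A)-selected and strand-specific. The authors aligned read pairs to mm10 with STAR (version 2.7.2b in the submitters' processing notes), counted them on gene exons with strand and deposited DESeq2-normalized counts, treated here as signal. Undoing a single factor per library returned whole reads for 100% of values. Groups and numbers came from the library titles, and reading a number as an animal is an assumption. limma 3.58.1 (R 4.3.3, with trend, 2-sided) was run on log2 values after a pseudocount of 1, for genes averaging at least 10 over the libraries compared, with Benjamini-Hochberg adjustment over all genes. Alternatives were edgeR 4.0.16 and DESeq2 1.42.0 on whole reads, other scalings, pseudocounts and filters, a joint fit, the replicate number as a block, and omission of single libraries. Members, lists and tests were chosen with earlier results of these data known. Named genes are core subunits, paralogs, extremes of level and the 3 largest rises and falls per complex and comparison, and others were named after their values were seen. The values of 1 member are not reported here, though it is part of all counts and medians. Exon lengths and positions are from RefSeq (GRCm38.p6). Within a genotype, libraries of equal number deviated together (r of 0.12 to 0.538, against -0.395 to 0.0697 for different numbers), so that they share an effect of that number. The tests reported first leave it out, the block is an alternative whose counts stand beside them, and the block without KO DP animal 3 was added after the data were seen. KO and WT animals of equal number are different animals. No library was a duplicate. The calculations were tested on simulated data. P values set a difference against the spread between the 4 libraries within a group, which limma moderates with a trend over all genes. The joint fit pools this spread over the 5 groups.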

Additional observations from a re-analysis of the deposited data

Results flagged for a closer look

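Within groups of 4 libraries, Dixon's ratio of the gap of an extreme library to the range was compared with its critical value in 205 groups, for 36 named members and 5 shares of counts, and 18 groups exceeded it. Chance flags about 1 in 20 groups. KO DP animal 3 accounted for 7 of the 18, always as the highest library: the share of complex IV (0.858), *Atp5g2* (0.948), *Atp5l* (0.882), *Atp5s* (0.922), *Cox4i1* (0.878), *Cox8a* (0.864) and *Uqcr10* (0.909). WT CD8+ animal 2 was the lowest for the share of complex III (0.881), the share of complex IV (0.947) and *Ndufs7* (0.850), and WT CD8+ animal 6 was the lowest for *Ndufs1* (0.838) and the highest for *Atp5sl* (0.869). In WT CD4+ cells, animal 6 was low for *Atp5a1* (0.848) and animal 3 high for *Atp5s* (0.883). In KO cells, CD4+ animal 4 was high for *Atp5s* (0.857), CD4+ animal 2 high for *Cox7a2* (0.852), CD4+ animal 3 low for *Ndufv1* (0.851) and DP animal 2 high for *Ndufs1* (0.923).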

How the results depend on the processing

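The counts of members called in KO against WT CD4+ (21) and CD8+ cells (20, both directions) moved to 9 and 11 when libraries were scaled to a common total, to 5 and 7 in a joint fit of the 20 libraries, and, in CD4+ cells, to 8 without the variance trend. With a common total the median of all genes was -0.13 (CD4+) and -0.15 (CD8+) in place of -0.048 and -0.042, and 54 and 46 members were positive in place of 64 and 58. The members' median minus that of all genes was 0.23 and 0.21 under both scalings. This could hardly differ, since 1 factor per library moves all genes nearly alike. With quantile normalization the members' median minus that of all genes was 0.16 (CD4+) and 0.099 (CD8+). With the replicate number as a block, 0 members were called in either comparison by limma (3 in CD4+ and 19 in CD8+ cells at an unadjusted p under 0.05). Of all genes, this block called 26 of 12391 in CD4+ and 89 of 12383 in CD8+ cells. Only the numbers 2 and 3 occur in both genotypes and mark different animals, so this block leaves 4 libraries. The remaining settings with all libraries gave 14 to 28 calls in CD4+ and 15 to 28 in CD8+ cells. Leaving out single libraries gave 0 to 26 calls in CD4+, 9 to 25 in CD8+ and 12 to 25 in WT CD4+ against WT CD8+ cells. For the last, the joint fit gave 1 and the replicate block 22 against 17. Against KO CD4+ cells, DP cells had 16 calls in the joint fit, and in both DP comparisons the replicate block without KO DP replicate 3 gave 5. All other settings, with single libraries left out too, gave 0 calls for both DP comparisons and for the interaction. No called difference of a named member changed sign in the settings run, but many lost their call. When single libraries were left out, 54 values of named members kept the call and 42 lost it in CD4+ cells. In CD8+ cells 85 kept it and 19 lost it. In CD4+ cells *Uqcrc1* was called in 1 of 8 such fits, *Cox7a2l* and *Atp5g2* in 2, and *Ndufa6* and *Uqcr10* in 3. *Ndufa10*, *Ndufv1* and *Cox8a* were called in 7. The causes of these shifts were not tested. With 4 libraries against 4, an exact permutation test of a single member cannot go below 0.0286.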
